A study of Mus musculus with 36 samples.

Results

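The transcripts described are 9 genes that encode secreted peptides, namely neuropeptide Y (Npy), somatostatin (Sst), vasoactive intestinal peptide (Vip), cholecystokinin (Cck), cortistatin (Cort), corticotropin releasing hormone (Crh), tachykinin 2 (Tac2), neurotensin (Nts) and thyrotropin releasing hormone (Trh). They were chosen by gene symbol, with earlier results of these data known, as 9 of the 30854 symbols on the array, and are read by 13 of its 45281 probes. RNA was measured on 36 Illumina MouseWG-6 arrays from 3 brain regions, the hippocampus (HIP), the prefrontal cortex (PFC) and the nucleus accumbens (NAc), of adult male C57BL/6J mice. All groups shared the strain, sex and injection schedule. Mice were injected i.p. once a day for 10 days with vehicle, a mix of saline, polyethylene glycol and DMSO, or with 1 of 3 inhibitors of histone deacetylases (HDACs), and tissue was taken 1 h after the last injection. Cpd-60 (45 mg/kg) is a benzamide selective for HDAC1 and HDAC2, SAHA (25 mg/kg) is a hydroxamic acid that inhibits HDACs non-selectively, and CI-994 (10 mg/kg) is a benzamide. Each array held RNA pooled from 2 mice, so differences between animals within a pool were averaged, and each treatment had 3 pools, numbered here as pools 1, 2 and 3, that gave all 3 regions. Under Cpd-60 the title and source of pool 2 name mice 3 and 4 while its description names mice 1 and 2, and results without it are given where they changed a call.

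Neuropeptides are cut from larger precursors inside dense core vesicles and act on G protein-coupled receptors of neighbouring cells. In cortex and hippocampus Sst, Npy, Vip, Cort and part of Cck mark classes of GABAergic interneurons, while Cck is also made by many pyramidal neurons. In the striatum Sst and Npy mark a sparse interneuron class. Crh and Trh are best known as the hypothalamic releasing hormones of the stress and thyroid axes, and Nts and Tac2 are made by small groups of forebrain neurons. Cort is a paralog of Sst whose peptide binds the somatostatin receptors. The transcription of Sst is a textbook case of activation through the cAMP response element (CRE), at which the factor CREB recruits histone acetyltransferases.

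The promoters of Sst and Cort are shown because Sst is the classical CRE gene of the group and Cort, its paralog, is the member called most often against vehicle. Both run from 250 bases before to 50 bases after a transcript start, are taken from RefSeq on GRCm38.p6 and lie on the minus strand, Sst at chr16:23890795-23891094 and Cort at chr4:149126714-149127013. The window of Sst lies within the RefSeq record of the gene, chr16:23889573-23891342. Capitals mark the letters of the CRE, TGACGTCA, in Sst and of its core, TGACG read on the other strand, in Cort.
Sst: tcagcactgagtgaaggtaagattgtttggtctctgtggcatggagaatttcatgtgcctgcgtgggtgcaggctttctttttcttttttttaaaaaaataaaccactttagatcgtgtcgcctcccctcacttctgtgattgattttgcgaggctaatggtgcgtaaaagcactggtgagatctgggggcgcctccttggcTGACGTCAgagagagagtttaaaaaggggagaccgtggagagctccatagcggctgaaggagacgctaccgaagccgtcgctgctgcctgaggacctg
Cort: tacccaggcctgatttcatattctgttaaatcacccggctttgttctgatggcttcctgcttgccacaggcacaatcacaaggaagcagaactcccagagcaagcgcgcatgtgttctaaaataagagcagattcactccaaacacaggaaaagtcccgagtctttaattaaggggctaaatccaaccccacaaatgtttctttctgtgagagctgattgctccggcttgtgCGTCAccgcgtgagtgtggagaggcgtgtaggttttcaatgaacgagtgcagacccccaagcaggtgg

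Promoters were found for 8 of the 9 genes, the exception being Crh. The full CRE, which reads the same on both strands, was present in 1 of the 8 promoters, that of Sst, where it begins 48 bases before the start, and in 1.79% of all 32851 promoters of that length. The core TGACG, searched on both strands and contained in the full site, was present in 6 of 8, namely Sst, Cort, Vip, Cck, Nts and Trh, and in 20.8% of all promoters. In Cort it begins 18 bases before the start, in Cck 47, in Vip 79, in Trh 96 and in Nts 166. The promoters of Npy and Tac2 did not hold these letters in this window.

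Arrays had a median raw intensity of 82.2 to 108.3 and a 95th percentile of 349.9 to 1079.7, and 31.9 to 43.3% of probes were detected, meaning a detection p-value of at most 0.01. Both extremes of the 95th percentile and of detection were NAc arrays under Cpd-60, pool 1 (349.9 and 31.9%) and pool 3 (1079.7 and 43.3%). In the HIP the 95th percentile was lower under SAHA (437.7 to 665.2) than under vehicle (686.4 to 839.6). Arrays of the same group correlated between 0.970 and 0.994, and precision is limited by their number. Under vehicle 10 of 10 striatal markers tested were higher in the NAc than in the PFC, with a median log2 difference of 3.28, and 5 of 6 cortical markers were lower. Of 6 hippocampal markers tested, 4 were higher and 1 was lower in the HIP than in the PFC, and 3 were higher and 2 lower than in the NAc, with summed levels under vehicle of 1750 to 2088 (HIP), 1938 to 2143 (NAc) and 1098 to 1175 (PFC). In the HIP the sum of 6 choroid plexus markers was 8329 to 11329 on BeadChip 1 and 1543 to 5641 on BeadChip 2. Every region was run on 2 BeadChips of its own, so that region and BeadChip cannot be told apart, and on each BeadChip 1 lay pools 1 and 2 of vehicle and Cpd-60 and pool 1 of SAHA and CI-994.

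Sst, Npy and Cck were detected in 36 of 36 arrays. The brighter probe of Cort was detected in 30 and its dimmer probe in 32, with all the misses in the NAc. Vip was detected in 26 arrays, of which 2 were from the NAc, Tac2 in 24, Trh in 24 and Nts in 23. The probe of Crh was detected in 0 of 36 arrays, at log2 intensities between 6.25 and 6.58, and was not tested. The second probes of Vip and Nts were detected in 0 arrays and that of Tac2 in 2, and these were not tested either. A log2 intensity is given below for the brighter probe of each gene after quantile normalization, and levels are compared between samples for the same probe only. Of the 9 genes, 8 passed the filter on dim probes in the NAc, the HIP and the vehicle arrays, and 7 in the PFC, where Nts did not pass.

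**Figure D1:**
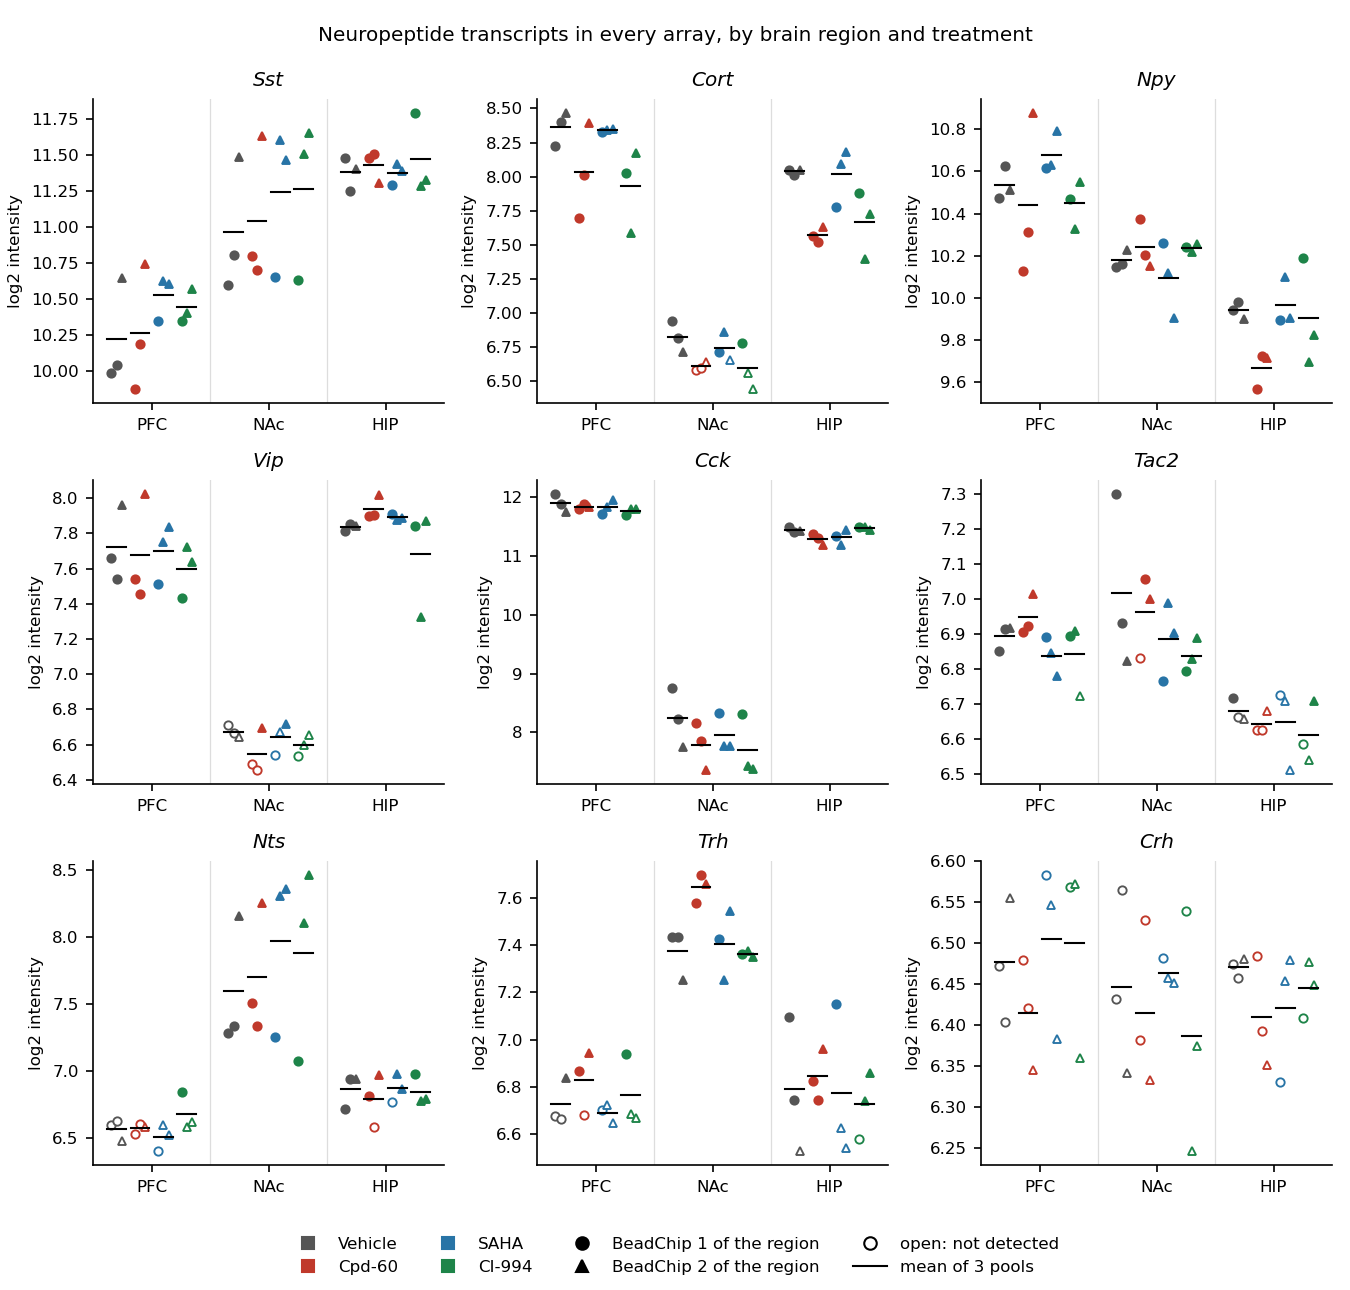
Log2 intensity of the brighter probe of each gene in all 36 arrays, by region (horizontal axis) and treatment (colour), with circles for arrays on BeadChip 1 and triangles for BeadChip 2 of the region, open symbols for arrays where the probe was not detected and a bar at the mean of 3 pools. Cck spans 7.35 to 12.06 across regions, Cort is lowest in the NAc, and Sst and Nts in the NAc separate by BeadChip.

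Region levels under vehicle were compared first, to give the baseline on which the drugs acted. Between regions the peptides differed in each comparison, with 3 of 8 genes differing between HIP and PFC, 7 of 8 between NAc and PFC and 6 of 8 between HIP and NAc, at an adjusted p under 0.05. Of all 22606 probes tested, 27.3%, 20.8% and 17.9% differed in these comparisons. Whether a region has fewer cells of a type or less RNA per cell cannot be told apart in pooled tissue.

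Cck, whose peptide acts through CCK receptors and is abundant in cortical pyramidal neurons, had the widest range. In the vehicle pools it read 12.06, 11.89 and 11.75 in the PFC, 11.49, 11.41 and 11.42 in the HIP, and 8.76, 8.23 and 7.74 in the NAc. The NAc lay below the other regions in every pool, with a log2 difference of -3.66 from the PFC (SE 0.201, adjusted p = 1.36e-06), and the HIP exceeded it by 3.20 (adjusted p = 2.99e-06, 9.19-fold). The PFC exceeded the HIP in 12 of 12 pools of all treatments, although the HIP minus PFC difference of -0.46 did not pass under vehicle (adjusted p = 0.121) other than without vehicle pool 3 (range over the alternatives 0.00747 to 0.464). Between the BeadChips of the NAc, described below, the cortical marker Slc17a7 differed in the same direction as Cck. Slc17a7 encodes the vesicular glutamate transporter of cortical excitatory neurons and was the only cortical marker called there. Whether Slc17a7 followed Cck from array to array in the NAc was not tested.

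Sst, the inhibitory peptide of dendrite-targeting interneurons, was lowest in the PFC. Its vehicle values were 9.99, 10.04 and 10.65 there, 10.60, 10.81 and 11.49 for the NAc, and 11.48, 11.25 and 11.41 for the HIP. The HIP exceeded the PFC by 1.15 (SE 0.226, 2.23-fold, adjusted p = 0.00470) and the NAc exceeded it by 0.74 (adjusted p = 0.0430). The PFC was lowest in 12 of 12 pools, while HIP and NAc, which did not differ beyond their spread (0.41, adjusted p = 0.249), were in either order, with the HIP higher in 6 of 12. The HIP call was lost without vehicle pool 1 or 2 (adjusted p over the alternatives 1.51e-07 to 0.119), and the NAc call without pool 1 or 2, without the detection filter and with BeadChip as a random block (0.000101 to 0.280).

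Cort, the Sst paralog, was lowest in the NAc in 12 of 12 pools by both of its probes. Under vehicle the brighter probe read 8.22, 8.40 and 8.47 in the PFC, 8.05, 8.01 and 8.05 in the HIP, and 6.94, 6.82 and 6.71 in the NAc. The NAc minus PFC difference was -1.54 (adjusted p = 9.74e-07) and the HIP minus NAc difference 1.22 (adjusted p = 4.27e-06), and the dimmer probe gave -0.85 and 1.03. By neqc normalization, which subtracts background, the brighter probe gave -2.78 and 2.34. The HIP minus PFC difference of -0.33 (SE 0.081, adjusted p = 0.0142) was not called with the mean of both probes (-0.08), by neqc or without vehicle pool 2 (adjusted p over the alternatives 0.0140 to 0.503). The probes disagreed on that order, since the dimmer probe gave 0.18 (adjusted p = 0.218), and the HIP lay above the PFC in 8 of 12 pools by the dimmer probe and in 0 of 12 by the brighter.

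Vip, a peptide of interneurons that inhibit other interneurons, was not detected in the 3 vehicle arrays of the NAc. It read 7.66, 7.54 and 7.96 in the PFC and 7.82, 7.86 and 7.84 in the HIP. The PFC was at least 1.99-fold (adjusted p = 4.14e-05) and the HIP at least 2.16-fold higher (adjusted p = 1.94e-05) than the NAc, taking the dimmest detected signals of the NAc arrays as the bound. PFC and HIP differed by 0.12, which did not pass (adjusted p = 0.404) other than without vehicle pool 3 (range over the alternatives 0.0305 to 0.947).

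Npy, co-released by a share of Sst interneurons, followed a flatter order. It read 9.94, 9.98 and 9.90 for the HIP, 10.15, 10.16 and 10.23 for the NAc, and 10.48, 10.62 and 10.51 for the PFC, with no overlap between regions. The difference was -0.60 for HIP minus PFC (SE 0.061, adjusted p = 0.00016), -0.24 for HIP minus NAc (adjusted p = 0.0241) and -0.36 for NAc minus PFC (adjusted p = 0.00243). The difference of HIP and NAc was lost without each vehicle pool in turn, by neqc and with BeadChip as a random block (adjusted p over the alternatives 0.0214 to 0.166), and that of NAc and PFC without vehicle pool 2 (0.00164 to 0.0798).

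Nts, a peptide that modulates dopamine signalling, and Trh were highest in the NAc in 12 of 12 pools. Nts read 7.28, 7.34 and 8.16 there, 6.71, 6.94 and 6.94 in the HIP, and 6.59, 6.62 and 6.47 in the PFC, where none of the 3 vehicle arrays detected it. The NAc was therefore at least 1.80-fold above the PFC (adjusted p = 0.00439), while HIP and PFC did not pass (adjusted p = 0.289). The HIP minus NAc difference was -0.73 (adjusted p = 0.0275, and -1.50 by neqc). Trh read 7.44, 7.43 and 7.25 there, 7.10, 6.74 and 6.53 in the HIP, and 6.68, 6.67 and 6.84 in the PFC. Its NAc level was higher than in the PFC by 0.65 (adjusted p = 0.00552), and the HIP minus NAc difference was -0.58 (adjusted p = 0.0104), with 1.58 and -1.40 by neqc. These 4 calls were lost without vehicle pool 2, with an adjusted p over the alternatives of up to 0.0681 and 0.159 for Nts and 0.160 and 0.235 for Trh, and the Nts difference of HIP and NAc also without pool 1.

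Tac2, the precursor of neurokinin B, stayed near the detection limit. It read 6.72, 6.66 and 6.66 for the HIP, 6.85, 6.91 and 6.92 for the PFC, and 7.30, 6.93 and 6.82 for the NAc under vehicle. The HIP was lowest in 12 of 12 pools, but no pair of regions passed, the widest being -0.34 for HIP minus NAc (adjusted p = 0.0529), which passed with detection at 0.01, by neqc (-0.94) and without vehicle pool 3 (adjusted p over the alternatives 0.00647 to 0.305). Without vehicle pool 2, 7 of the 16 region calls were made, namely those of Cck, Cort and Vip against the NAc and of Npy between HIP and PFC, and without pool 1, 12. The fits with the pool as a block made 16 calls.

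The receptors also differed by region. Of 23 genes listed as receptors or peptide binding and degrading proteins, 16 were tested, of which 7 differed between HIP and PFC (2 higher, 5 lower), 11 between NAc and PFC (3 higher, 8 lower) and 7 between HIP and NAc (4 higher, 3 lower). The median difference was -0.02, -0.15 and 0.01, against -0.03, 0.00 and 0.00 over all probes. Cckbr, the brain receptor of Cck, was lower than in the PFC, with differences of -3.37 in the HIP (adjusted p = 5.38e-07) and -2.24 in the NAc (adjusted p = 2.99e-06). Npy2r, a presynaptic Npy receptor, was higher in the HIP than in the PFC by 1.21 (adjusted p = 5.55e-05), whereas Npy1r differed by -0.57 (adjusted p = 0.00319). Sstr2, which binds both Sst and Cort, differed from the PFC by -0.60 in the HIP and -0.70 in the NAc (adjusted p = 0.00874 and 0.00432), and Crhbp, which binds Crh, by -1.48 in the NAc (adjusted p = 2.05e-06). Of 10 precursor processing genes tested, 3 differed between HIP and PFC, 2 between NAc and PFC and 4 between HIP and NAc, against 27.3%, 20.8% and 17.9% of all probes. The called genes of NAc and PFC were the granins Scg2, which was higher in the NAc by 1.21 (adjusted p = 9.39e-06), and Chgb, with a difference of -1.06 (adjusted p = 4.21e-05).

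Each drug was then compared with vehicle in each region, to ask whether chronic HDAC inhibition altered these peptides. At an adjusted p under 0.05, 0 of the members and 0 of all probes (0%) differed in any of the 9 comparisons by limma, and Tukey's HSD after an analysis of variance, the test of the study's methods, also called 0. At 1.2-fold and a p under 0.05 by Tukey's HSD, the threshold of the methods, 2 comparisons of members were called. That test held CI-994 as a further group, which the study's own analysis did not describe. The comparisons below use a looser rule, a change of 1.2-fold or more with an unadjusted limma p under 0.05, at which 5 comparisons of members were called. Confidence intervals are at 95% and come from the same fits. An exact permutation test of 3 pools against 3 cannot give a two-sided p under 0.1, the value it takes wherever 2 groups do not overlap. Lack of overlap was not counted over all probes, and it also occurred in comparisons of members that were not called. For PFC, NAc and HIP in turn, the 1.2-fold threshold was passed by 1.11%, 1.78% and 1.53% of probes under Cpd-60, 0.217%, 0.546% and 3.17% under SAHA, and 0.654%, 0.383% and 0.67% under CI-994. An unadjusted p under 0.05 alone was reached by 1150, 1109 and 1224 probes under Cpd-60, 499, 477 and 2182 under SAHA and 881, 463 and 755 under CI-994, in the same order of regions. Of the 7, 8 and 8 members tested, 0, 1 and 2 passed under Cpd-60, 1, 0 and 1 under CI-994, and 0 in each region under SAHA. The 3 drugs share the vehicle arrays, and as their doses differed no drug was tested against another.

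Cort was the member called most often, and each of its called differences was a fall. In the HIP the vehicle pools read 8.05, 8.01 and 8.05, the Cpd-60 pools 7.56, 7.52 and 7.63, the CI-994 pools 7.88, 7.39 and 7.73, and the SAHA pools 7.78, 8.10 and 8.18. All pools under Cpd-60 and CI-994 lay below all vehicle pools, and the SAHA pools lay on both sides. Cort fell by 0.47 under Cpd-60 (SE 0.120, interval -0.73 to -0.21, 0.723-fold, adjusted p = 0.814) and by 0.37 under CI-994 (SE 0.120, interval -0.63 to -0.11, 0.774-fold, adjusted p = 1.00), while the SAHA difference was -0.02 (interval -0.28 to 0.24). The dimmer probe read 8.09, 7.73 and 7.71 under vehicle and 7.22, 7.36 and 7.64 under Cpd-60, a called difference of -0.44 with no overlap. Under CI-994 the dimmer probe overlapped with vehicle and its difference of -0.33 did not pass. Within the BeadChips 1 and 2 of the HIP the brighter probe differed by -0.49 and -0.42 under Cpd-60 and by -0.15 and -0.49 under CI-994. The dimmer probe differed there by -0.62 and -0.07 under Cpd-60 and by -0.12 and -0.34 under CI-994.

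The summed level of 23 interneuron markers, among them Gad1 and Slc32a1, was 9143 to 9793 in the vehicle HIP, 9583 to 10561 under Cpd-60 and 8904 to 9506 under CI-994. A sum over markers of many interneuron classes cannot show a change in a single class, and its part in the Cort difference was not tested. The sum of 7 astrocyte markers was 11396 to 11948 under vehicle, 13150 to 13751 under Cpd-60 with no overlap, and 11456 to 12469 under CI-994, and 1 of the 7 passed under Cpd-60, the gap junction gene Gjb6 (0.33, SE 0.119). The part of the astrocyte markers in the differences of Cort and Npy was not tested. The sum of 6 cortical markers was 2604 to 3234 under vehicle and 2663 to 3687 under Cpd-60, and reached 5799 in CI-994 pool 2, the CI-994 pool with the lowest Cort, against 2974 and 2589 in the other two. Without that pool the CI-994 difference was -0.23, under 1.2-fold, and its part in the result was not tested otherwise. The Cpd-60 difference of the HIP passed under all 21 alternatives, between -0.71 (neqc) and -0.44, and that of CI-994 was -0.57 by neqc and did not pass Tukey's HSD.

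**Figure D2:**
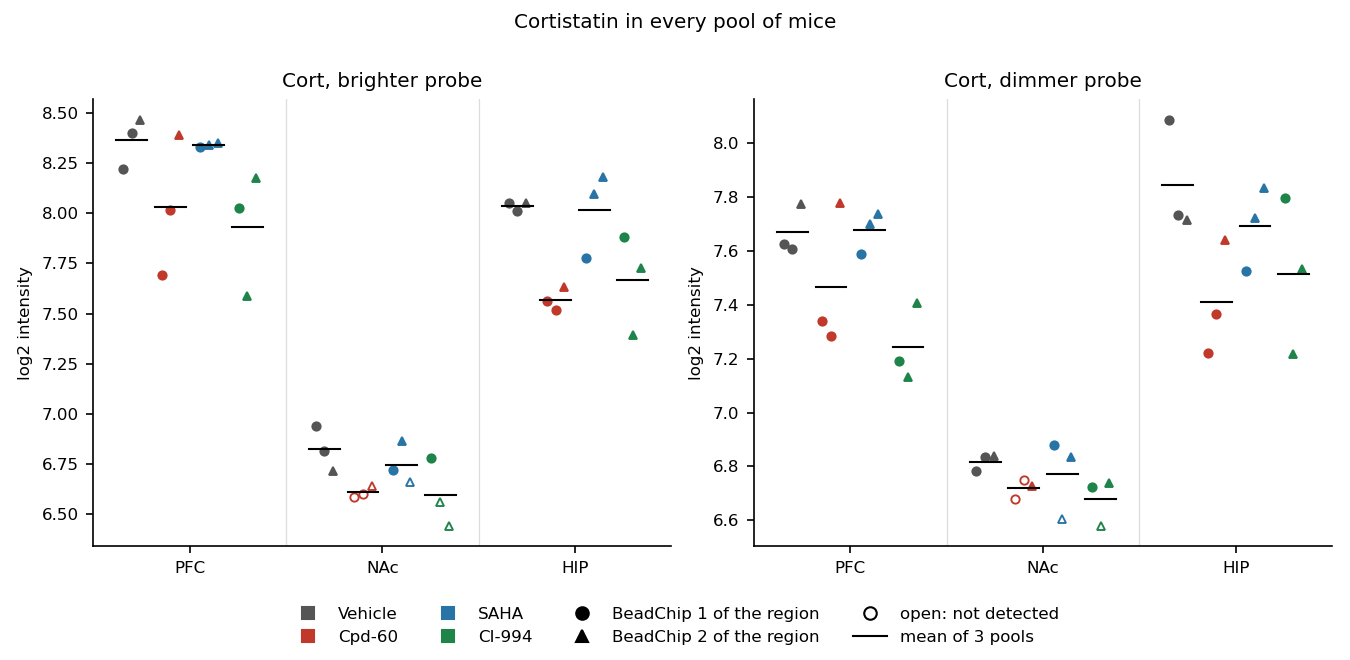
Log2 intensity of Cort in every array for the brighter (left) and the dimmer probe (right), by region (horizontal axis) and treatment (colour), with circles for BeadChip 1 and triangles for BeadChip 2, open symbols for arrays where the probe was not detected and a bar at the mean of 3 pools. In the HIP the Cpd-60 pools lie below all vehicle pools for both probes.

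In the PFC the vehicle pools read 8.22, 8.40 and 8.47 for Cort, the CI-994 pools 8.03, 7.59 and 8.18, the Cpd-60 pools 7.69, 8.01 and 8.39, and the SAHA pools 8.33, 8.34 and 8.35. CI-994 lay below vehicle in all pools, and Cpd-60 overlapped with it. Cort fell by 0.44 under CI-994 (SE 0.164, interval -0.79 to -0.08, 0.740-fold, adjusted p = 1.00), and the dimmer probe differed by -0.42, which was also called. The Cpd-60 difference was -0.33 (interval -0.69 to 0.02, and -0.20 by the dimmer probe) and that of SAHA -0.03 (interval -0.38 to 0.33). Within BeadChips 1 and 2 the differences were -0.29 and -0.59 under CI-994 and -0.46 and -0.08 under Cpd-60. The summed interneuron markers were 8525 to 9624 under vehicle and 8744 to 9451 under CI-994. The CI-994 call was lost without CI-994 pool 2 (-0.26), vehicle pool 2 (-0.42) or vehicle pool 3 (-0.38) and by Tukey's HSD. The Cpd-60 difference passed without Cpd-60 pool 3 (-0.51), without CI-994 pool 2, with the CI-994 arrays left out of the fit (27 arrays) and with the pool number as a block.

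In the NAc, where Cort was dim, the vehicle pools read 6.94, 6.82 and 6.71, the Cpd-60 pools 6.58, 6.60 and 6.64, the CI-994 pools 6.78, 6.56 and 6.44, and the SAHA pools 6.72, 6.86 and 6.66. The brighter probe was detected in 3 of 3 vehicle pools, 0 of 3 Cpd-60 pools, 1 CI-994 pool and 2 SAHA pools. The Cpd-60 difference of -0.22 (interval -0.42 to -0.01, 0.861-fold) and the CI-994 difference of -0.23 (interval -0.44 to -0.02, 0.853-fold) were under 1.2-fold, and the SAHA difference was -0.08 (interval -0.29 to 0.13). By neqc they were -0.67 and -0.62 and passed. Both also passed without vehicle pool 3 (-0.27 and -0.29), and CI-994 without its pool 1 (-0.32). These fits left vehicle or CI-994, in turn, on 1 BeadChip only. The dimmer probe differed by -0.10 and -0.14, which did not pass.

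Averaged over the 3 regions, Cort differed by -0.34 under Cpd-60 (SE 0.082, interval -0.51 to -0.17, adjusted p = 0.0503), by -0.35 under CI-994 (interval -0.51 to -0.18, adjusted p = 0.181) and by -0.04 under SAHA (interval -0.21 to 0.13). Of the 7 members tested, 0 passed an adjusted p under 0.05, where 0.571% of 19447 probes did under Cpd-60, 0.0823% under CI-994 and 0% under SAHA. The Cpd-60 mean passed without Cpd-60 pool 3 (-0.41), without CI-994 pool 2, with BeadChip as a block, by neqc (-0.62) and with detection at 0.01, over a range of adjusted p from 0.00384 to 0.254. The adjusted p of the CI-994 mean lay between 0.0622 and 1.00. A difference between regions in the effect of any drug was found for 0 of the members and 0% of probes. For Cort the effect in the HIP minus the mean of the other regions ranged over the alternatives from -0.29 to -0.13 under Cpd-60 and from -0.07 to 0.05 under CI-994.

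**Figure D3:**
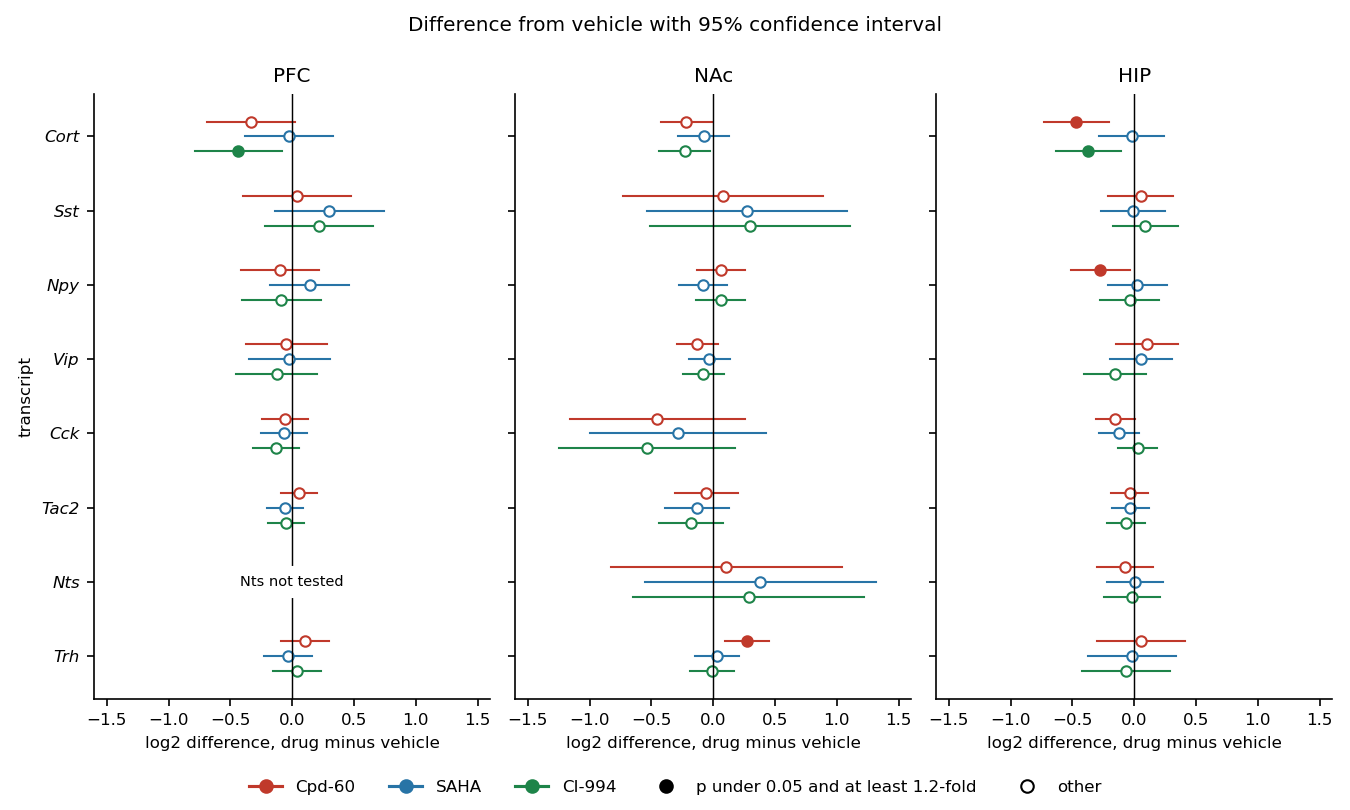
Log2 difference from vehicle (horizontal axis) with its 95% confidence interval for 8 genes (vertical axis) under each drug (colour) in the PFC, NAc and HIP, with filled points for those at p under 0.05 and at least 1.2-fold. Filled points stand at Cort in the PFC (-0.44, CI-994) and HIP (-0.47 and -0.37), at Trh in the NAc (0.27) and at Npy in the HIP (-0.27), and the intervals of Sst, Nts and Cck are widest in the NAc.

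Trh rose under Cpd-60 in the NAc. The vehicle pools read 7.44, 7.43 and 7.25, the Cpd-60 pools 7.58, 7.70 and 7.66, the SAHA pools 7.42, 7.25 and 7.54, and the CI-994 pools 7.36, 7.37 and 7.35. The Cpd-60 pools all lay above the vehicle pools. The rise was 0.27 (SE 0.081, interval 0.09 to 0.45, 1.21-fold, adjusted p = 0.942), and 0.20 and 0.41 within BeadChips 1 and 2. The differences under SAHA and CI-994 were 0.03 (interval -0.15 to 0.21) and -0.01 (interval -0.19 to 0.17). By neqc the rise was 0.47, and it was under 1.2-fold without vehicle pool 3 (0.21) or Cpd-60 pool 2 (0.25). The sum of 23 interneuron markers was 11738 to 12320 in the vehicle NAc and 12363 to 14838 under Cpd-60, that of 10 processing genes 18340 to 19210 and 19997 to 22144, that of 4 amygdala and claustrum markers 745.7 to 799.7 and 635.5 to 699.3, and that of 6 microglia markers 1728 to 1818 and 1624 to 1701. These sums did not overlap, nor did that of 10 genes induced by glucocorticoids, described below (2835 to 3052 and 3407 to 5435). Other sums overlapped, among them those of 7 astrocyte markers (8365 to 9916 and 9154 to 10752) and 6 cortical markers (798.5 to 942.0 and 717.6 to 859.5). The part of any of these lists in the Trh difference was not tested. In the PFC and HIP, Cpd-60 differed from vehicle by 0.10 and 0.05 (intervals -0.09 to 0.30 and -0.30 to 0.41).

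Npy fell under Cpd-60 in the HIP. The vehicle pools read 9.94, 9.98 and 9.90, the Cpd-60 pools 9.57, 9.72 and 9.71, the SAHA pools 9.90, 10.10 and 9.90, and the CI-994 pools 10.19, 9.70 and 9.83. The Cpd-60 pools all lay below the vehicle pools, and the other drugs overlapped with them. The fall was 0.27 (SE 0.109, interval -0.51 to -0.04, 0.827-fold, adjusted p = 0.917), and the difference was -0.32 and -0.19 within BeadChips 1 and 2. It was not called without vehicle pool 1 (-0.27), vehicle pool 2 (-0.25) or Cpd-60 pool 1 (-0.22), by neqc (-0.30) or by Tukey's HSD. The astrocyte markers described with Cort were higher in the same pools. In the PFC the Cpd-60 pools read 10.13, 10.31 and 10.88 against 10.48, 10.62 and 10.51, a difference of -0.10 (interval -0.42 to 0.22) that was -0.32 and passed without Cpd-60 pool 3. In the NAc the difference was 0.06 (interval -0.13 to 0.26).

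Sst, the paralog of Cort, was not called in any region. In the HIP the Cpd-60 pools read 11.48, 11.51 and 11.31 and the CI-994 pools 11.80, 11.29 and 11.33, against 11.48, 11.25 and 11.41 under vehicle. The difference was 0.05 under Cpd-60 (interval -0.21 to 0.31), 0.09 under CI-994 (interval -0.17 to 0.35) and -0.01 under SAHA (interval -0.27 to 0.25). In the PFC the SAHA pools read 10.35, 10.63 and 10.60 against 9.99, 10.04 and 10.65, a difference of 0.30 (interval -0.14 to 0.74) that passed without vehicle pool 3 (0.51) and with the pool number as a block. The CI-994 difference of the PFC, 0.22, also passed without vehicle pool 3 (0.43). That pool was the only vehicle array on BeadChip 2 of the PFC, where all Sst values lay above those on BeadChip 1. Within BeadChips 1 and 2 of the PFC, Sst differed by 0.33 and -0.03 under SAHA and by 0.33 and -0.16 under CI-994. In the NAc the intervals were wide, from -0.73 to 0.89 under Cpd-60, -0.53 to 1.09 under SAHA and -0.51 to 1.11 under CI-994.

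Cck, Vip, Tac2 and Nts were not called either. In the NAc Cck read 8.16, 7.86 and 7.35 under Cpd-60, 8.33, 7.77 and 7.77 under SAHA and 8.31, 7.43 and 7.38 under CI-994, against 8.76, 8.23 and 7.74 under vehicle. The groups overlapped. The differences were -0.45, -0.29 and -0.54 in that order, each with an SE of 0.321. Within BeadChips 1 and 2 they were -0.48 and -0.39 under Cpd-60, -0.17 and 0.03 under SAHA, and -0.18 and -0.34 under CI-994. With the pool number as a block all 3 passed, but these numbers do not pair the treatments. Pool 2 of SAHA and of CI-994 lay on another BeadChip than pool 2 of vehicle. With BeadChip as a block Cpd-60 and CI-994 passed (-0.45 and -0.30). The CI-994 difference also passed without vehicle pool 3 (-0.78) or CI-994 pool 1 (-0.84). Either fit left that group on 1 BeadChip only. Vip in the HIP read 7.84, 7.33 and 7.87 under CI-994 against 7.82, 7.86 and 7.84, a difference of -0.16 (interval -0.41 to 0.09). Tac2 in the NAc differed by -0.18 under CI-994 (interval -0.44 to 0.08), which was -0.28 and passed without vehicle pool 3, with vehicle then on 1 BeadChip only. Over the other comparisons with vehicle Cck differed by -0.15 to 0.03, Vip by -0.13 to 0.10 and Tac2 by -0.13 to 0.05, Nts by -0.08 to 0.01 in the HIP and 0.11 to 0.38 in the NAc. Among these, the HIP pools did not overlap with vehicle for Cck under Cpd-60 (-0.15) and for Vip under Cpd-60 (0.10) and SAHA (0.05). Of the members described above, Npy differed by -0.09 to 0.14 and Trh by -0.06 to 0.04 in the comparisons not yet given, and Sst by 0.04 under Cpd-60 in the PFC and 0.08 to 0.30 in the NAc. The intervals of Nts in the NAc spanned from -0.83 to 1.32 over the 3 drugs.

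Few genes of peptide processing and reception passed. Of the 11 processing genes, 9 (PFC) or 10 (NAc and HIP) were tested, and the median difference from vehicle lay between -0.10 and 0.10 in the 9 comparisons, against -0.01 to 0.00 over all probes. Pcsk1n, an inhibitor of prohormone convertase 1, was higher under Cpd-60 in the NAc by 0.38 (SE 0.170), and the granin Chgb differed in the HIP by -0.31 under SAHA and -0.32 under CI-994 (SE 0.098 for each). Of 23 receptor genes, 14 to 16 were tested, with medians between -0.07 and 0.00, and 1 passed in 1 comparison, Npy2r, which fell by 0.32 under CI-994 in the HIP (SE 0.113). Of 28 interneuron markers, 20 or 21 were tested in a comparison, and 3 calls were made over the 9 comparisons, all higher under Cpd-60. Among them were the serotonin receptor Htr3a in the PFC (0.27, SE 0.078) and the calcium-binding protein Calb2 in the HIP (0.56, SE 0.233). The same rule called 1.11%, 1.78% and 1.53% of all probes under Cpd-60 in the PFC, NAc and HIP, and the list counts were not tested against these shares. Of 12 other neuropeptide genes, 6 or 7 were tested and 0 passed in any comparison with vehicle.

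Among 10 genes induced by glucocorticoids, the hormones at the end of the axis that Crh starts, 5, 6 and 6 passed as higher under Cpd-60 in the PFC, NAc and HIP, with medians of 0.29, 0.43 and 0.39, while SAHA passed for 0 and CI-994 for 1, Cdkn1a, which fell by 0.53 in the PFC (SE 0.198). Sgk1, an ion transport kinase, rose by 0.60, 0.75 and 0.89, and Tsc22d3, a glucocorticoid-induced leucine zipper, by 0.55, 0.85 and 0.43 in the PFC, NAc and HIP. The part of these changes in the differences of Cort, Trh and Npy was not tested, and 3 of the list's genes, Sgk1, Tsc22d3 and Sult1a1, were picked by the study from these arrays.

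Within the NAc, Sst, Nts and Cck differed more between BeadChips than between treatments, a comparison chosen after the data were seen. Sst read 10.60 to 10.81 in the 6 arrays on BeadChip 1 and 11.47 to 11.65 in the 6 on BeadChip 2, Nts 7.07 to 7.51 and 8.11 to 8.47, and Cck 7.86 to 8.76 and 7.35 to 7.77. The arrays of the BeadChips did not overlap for any of these 3 genes. With treatment in the model, Sst was higher on BeadChip 2 by 0.87 (SE 0.056, adjusted p = 1.05e-06), Nts was higher by 1.00 (adjusted p = 5.76e-06) and Cck differed by -0.72 (adjusted p = 0.000296). Between the BeadChips of the NAc 22.9% of all probes differed, against 0.144% in the PFC and 1.19% in the HIP. In the PFC Vip was higher on BeadChip 2 by 0.36 (adjusted p = 0.0345, and over 0.05 in 11 of 12 fits without 1 pool and by neqc), and Sst by 0.44 without passing (adjusted p = 0.119). In the HIP 0 of 8 members differed. The BeadChip cannot be told apart from the pools of mice that lay on it.

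Called shares of the marker lists between the BeadChips of the NAc were mostly at or below the 22.9% of all probes, with 1 of 5 cortical, 1 of 7 septal, 1 of 10 striatal and 3 of 21 interneuron markers. The sum of the cortical markers was 805.5 to 1025 on BeadChip 1 and 676.2 to 798.5 on BeadChip 2, and Slc17a7 differed by -0.85 (adjusted p = 0.00483). The sum of 8 other neuropeptide genes also did not overlap, at 1681 to 2296 and 1445 to 1586, and 1 of 7 tested was called, Cartpt (-0.54, adjusted p = 0.00115). The sum of 8 markers of septum and bed nucleus overlapped, at 1219 to 1440 and 1366 to 2082, and Zic1, a transcription factor of the septum, was higher on BeadChip 2 by 1.37 (adjusted p = 0.00290). The sum of 10 striatal markers was 19736 to 28440 and 16993 to 26166, with overlap, and the called gene was the enkephalin precursor Penk1 (higher by 1.00, adjusted p = 2.73e-05). Among the interneuron markers Gad1 was higher by 0.83 (adjusted p = 6.29e-06) and Dlx6 and Htr3a differed by -0.33 and -0.16. Their part in the Sst, Nts and Cck values was not tested.

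**Figure D4:**
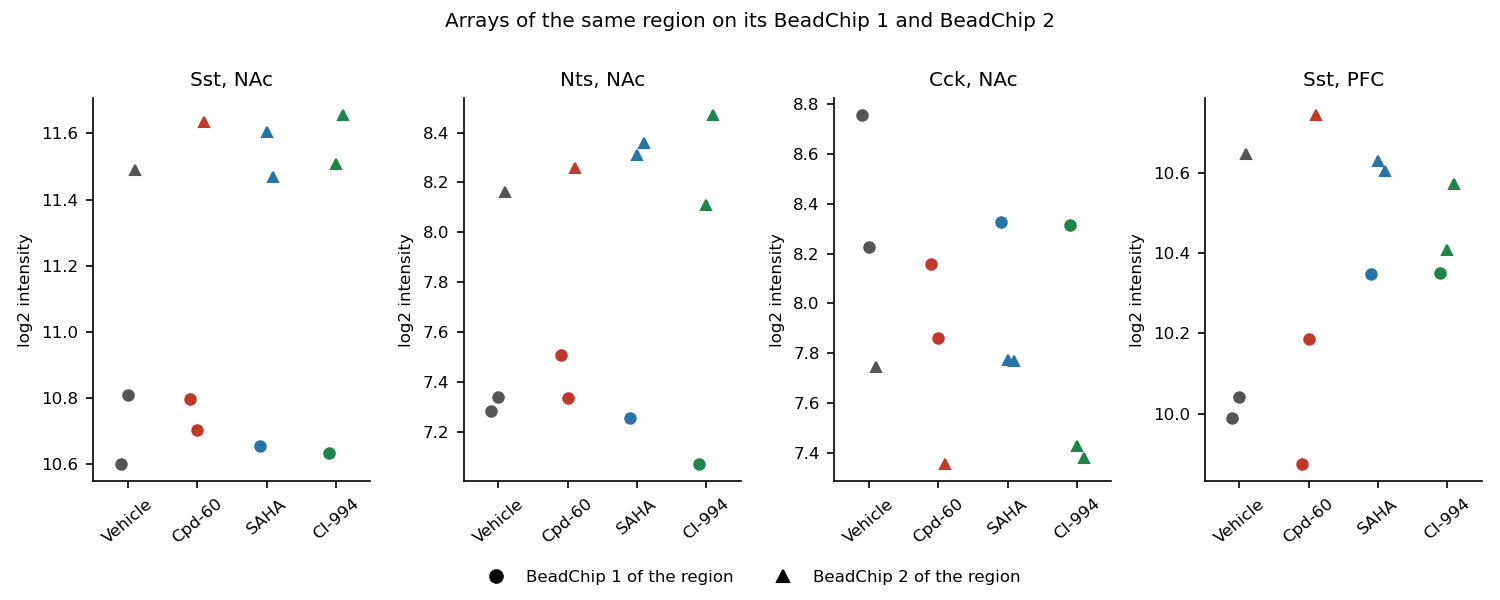
Log2 intensity of Sst, Nts and Cck in the NAc and of Sst in the PFC in every array, by treatment (horizontal axis and colour), with circles for arrays on BeadChip 1 and triangles for BeadChip 2 of the region. In the NAc circles and triangles do not overlap for the 3 genes in any treatment.

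The transcripts whose values were most like each member over the 36 arrays are given as a description, since these arrays share regions, pools and BeadChips. For Cck they were Nrn1, Nfix and Slc30a3 (Pearson r of 0.98 for each), of which Slc30a3 encodes the zinc transporter of synaptic vesicles. For Cort they were 6330404C01Rik (0.96), Galnt9 (0.96) and St8sia5 (0.95), for Vip 3110035E14Rik (0.98), Dkk3 (0.97) and Faah (0.96), and for Npy Kcnj12 (0.89), Ramp3 (0.87) and Sema4a (0.87). Trh was most like Ecel1 (0.93), a neuronal membrane peptidase, 0610007P22Rik (0.92) and Nrsn2 (0.91), and Tac2 like LOC100047645 (0.82), Cxxc4 (0.81) and Slc4a3 (0.81). Sst was most like Rbx1, a subunit of cullin ubiquitin ligases (0.97), LOC100045668 (0.97) and 1810064F22Rik (0.97), and most like Rbx1 also after the mean of each of the 12 groups was subtracted (0.95). After that subtraction Cort was most like 9430023L20Rik (0.78), Cck like Dorz1 (0.86), Vip like Synj2bp (0.77), Npy like Ppa2 (0.75), Tac2 like Slc12a2 (0.75) and Trh like Fgd4 (0.68).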

How the data were processed

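For 36 arrays the authors deposited intensity values of 45281 probes, linear and neither normalized nor background subtracted, and a detection p-value for each. Arrays were quantile normalized together, floored at an intensity of 1 and log2 transformed in R 4.3.3 with limma 3.58.1. Probes were tested if some group of the fit had 3 of 3 arrays with a detection p of 0.2 or less, as read from the methods of the study. Each region was fitted by limma (lmFit and eBayes) over its 12 arrays without covariates, regions were compared over the 9 vehicle arrays, and mean effects and differences between regions were tested over 36 arrays with the pool as a random block (consensus correlation -0.005). Adjustment was by Benjamini-Hochberg over all tested probes.

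By the rule for named genes, each member is given by its brightest probe in the comparisons it was tested in, some of them as ranges or counts. For the 7 members tested in all regions the 3 most similar genes by Pearson correlation are named, and the first after group means were subtracted. List genes are named where they passed or changed most. The genes, lists and comparisons were chosen with earlier results of these data known. The lists were written from general knowledge. Over the 9 comparisons with vehicle, those of tissues and cells had 8 calls for astrocytes (6 higher, 2 lower) and 7 for oligodendrocytes (3 higher, 4 lower). Striatum had 4 (1 higher, 3 lower), thalamus 3, microglia 2, and septum and bed nucleus, amygdala and claustrum, endothelium and activity genes 1 each. Cortex, hippocampus, hypothalamus, choroid plexus and other neuropeptides had 0. The same rule called 0.217 to 3.17% of all probes in a comparison, and the list counts were not tested against this share. Under vehicle 7 of 7 oligodendrocyte markers were higher in HIP and NAc than in PFC. The regions of a pool come from the same mice. Same-numbered arrays of 2 regions deviated together with correlations of -0.48 to 0.59, above 0.1 in 11 of 36. Fold bounds for probes not detected in a group use the lowest signal detected on each array, and the adjusted p beside them is that of the log2 difference without the bound. The fits were also run on simulated arrays with added changes of known size. These were drawn without BeadChip differences or shared pools, so the check does not cover those features. Alternatives were neqc normalization (offset 16), detection at 0.01 and no filter, BeadChip and pool number as blocks, the mean of a gene's probes, the dimmer Cort probe (added after the data were seen), the 27 arrays without CI-994, the methods' analysis of variance with Tukey's HSD, and each pool left out.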

Additional observations from a re-analysis of the deposited data

How the results depend on the processing

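Against vehicle 5 comparisons of members were called at an unadjusted p under 0.05 and 1.2-fold. The count was 10 with the pool number as a replicate block, 2 by the methods' analysis of variance with Tukey's HSD, 7 with the BeadChip as a block, 6 by neqc, 5 with detection at 0.01, without a filter and with the mean of the probes, and 4 with the dimmer Cort probe, and it lay between 3 and 9 without 1 pool. The labels give pools of different treatments only the same numbers. In 3 of 18 pairs of groups all 3 same-numbered correlations were above 0.1, vehicle and Cpd-60 in the PFC (0.18 to 0.59) and the NAc (0.35 to 0.73), whose numbers also lay on the same BeadChips, and SAHA and CI-994 in the NAc (0.37 to 0.87), and in these 2 Cpd-60 comparisons the block added the calls of Cort in the PFC and Cck in the NAc. Same-numbered pools correlated above 0.1 in 32 of 54 cases, and the array with the best correlation was that of its own number in 50 of 108, and in no pair of groups for all. At an adjusted p under 0.05 the count was 0 under every alternative. Between regions under vehicle 16 calls became 7 to 19 without 1 vehicle pool, and 14 to 17 under the other alternatives, with 16 with the pool as a block. For the mean over regions 0 calls became 1, Cort under Cpd-60, with the BeadChip as a block, with detection at 0.01 and by neqc, 0 to 1 without 1 pool, and 0 without the replicate block. Differences of the drug effect between regions stayed at 0 under all alternatives. Between BeadChips 4 calls became 3 to 4 without 1 pool and 3 by neqc. Over 207 results 1 called value reversed, Cort between HIP and PFC under vehicle, from -0.33 to 0.18 with the dimmer probe, and the cause was not tested. Fits that left a group with 2 pools pooled the spread over all groups. Without pool 3 of vehicle or Cpd-60, or pool 1 of SAHA or CI-994, that group lay on 1 BeadChip of each region only. The dimness of Crh, of Vip in the NAc and of Nts in the PFC limits what these arrays can show of them.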
